A study of Mus musculus with 12 samples.

Results

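Immediate early genes are the first genes that a cell switches on after a stimulus, without needing new protein. The 10 described here were taken by symbol from the 25239 gene symbols of each count table: the AP-1 and related subunits Fos, Fosb, Jun, Junb and Atf3, the transcription factors Egr1, Nr4a1 and Ier2, and the feedback regulators Zfp36 and Dusp1. All 10 were found in both tables, and all 10 passed the filter on low counts in each.

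RNA of mouse heart cardiomyocytes was sequenced in 12 libraries, 3 in each of 4 groups. The groups Chaf1a cko and Chaf1a cko 3M carried floxed Chaf1a alleles and Myh6-Cre, in which a promoter active in cardiomyocytes drives the recombinase. The groups Ctrl and Ctrl 3M, labelled WT, carried floxed alleles according to the design text, which names no Cre for them, so Cre and genotype go together. Chaf1a encodes the large subunit of CAF-1, the chaperone that places histones on newly copied DNA, and the title of the study names its perinatal loss. Chaf1a cko and Ctrl form 1 table, called the first set, and Chaf1a cko 3M and Ctrl 3M form a separate table, called the 3M set. What 3M stands for is not said in the labels, nor is any age. They describe the cells as cultured cardiomyocytes, name 1 batch for all libraries and do not say if replicates are separate animals or cultures. The p-values below therefore reflect variation among these libraries alone, and that variation may be technical.

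The first set held 15068468 to 20896673 counts per library, and the 3M set 10569325 to 16445963. The libraries labelled Chaf1a cko did not have a lower mean level of Chaf1a RNA. Its level was 25.1 ± 3.56 CPM (counts scaled to library size) in Chaf1a cko and 24.6 ± 6.93 CPM in Ctrl (SD, n = 3 each; edgeR adjusted p 0.981), and 6.49 ± 1.61 CPM in Chaf1a cko 3M and 5.45 ± 3.99 CPM in Ctrl 3M (adjusted p 0.952). The sources used here do not say which part of the gene is deleted, so groups are called by their labels throughout. Myh6, the cardiac myosin heavy chain, averaged 37062 CPM in Chaf1a cko, 40460 CPM in Ctrl, 26461 CPM in Chaf1a cko 3M and 16212 CPM in Ctrl 3M. Markers of other heart cells were present as well, among them the endothelial Cdh5, at 1066 CPM in Chaf1a cko, 1014 CPM in Ctrl, 795 CPM in Chaf1a cko 3M and 853 CPM in Ctrl 3M. In the first set 94.7% to 97.7% of 1535 chemoreceptor genes, treated here as largely unexpressed in the heart, had counts in a library, with a median of 1.65 CPM and a 95th percentile of 5.31 CPM. In the 3M set 1.17% to 1.63% of them had counts. The spread between libraries was also unlike: for genes above 10000 counts, the coefficient of variation had a median of 1.94% in Chaf1a cko, 2.85% in Ctrl, 11.5% in Chaf1a cko 3M and 20.01% in Ctrl 3M. No 2 libraries of a group agreed within counting noise. Levels were not compared between the tables.

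Growth factors, stretch, calcium signals and stress all reach immediate early genes through kinases, chiefly the MAP kinases, which act on transcription factors already bound at their promoters, such as serum response factor with its partners and CREB. The proteins of the FOS and JUN families pair to form AP-1, which drives a later wave of genes for growth, matrix remodelling and survival. The response is short, because the transcripts decay quickly and because it induces its own inhibitors. In heart muscle these genes are known to respond to haemodynamic load and to the handling of isolated cells.

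The 10 genes are compact. Their spans on GRCm38, the assembly that mm10 is based on, ran from 1522 to 20894 bases with a median of 3286, against a median of 18686 bases over 20134 protein-coding genes tested in the first set. For 8 of the 10 the span was below 10000 bases, against 33.4% of the protein-coding genes. Jun, Junb and Ier2 have 1 exon. Jun overlaps the antisense gene Junos, and Zfp36 overlaps the antisense gene Gm44710. The sources used here do not say whether the counting used strand, so reads of the partners cannot be told apart.

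RefSeq promoter windows, the 250 bases before 1 start of transcription per gene on GRCm38.p6, were held for 8 of the 10 genes, not for Egr1 and Ier2. The Nr4a1 window, chr15:101266596-101266845, lies inside the span of the gene, which begins at 101253902. The Fosb window overlaps the span of its gene, whose upstream end is at 19310118. Distances below are counted from the start that each window precedes. The windows of Fos, Fosb, Jun and Atf3, which fell in the first set, are shown, followed by that of Dusp1, which did not pass the test and holds the full element. Capitals mark TGACG or its reverse complement CGTCA, the short core of the cAMP response element bound by CREB, the full element TGACGTCA, and the TATA box TATAAA. The Fos window is chr12:85473640-85473889 on the plus strand. The Fosb window is chr7:19310046-19310295, the Jun window chr4:95052223-95052472, the Atf3 window chr1:191183334-191183583 and the Dusp1 window chr17:26508473-26508722, all on the minus strand.
Fos: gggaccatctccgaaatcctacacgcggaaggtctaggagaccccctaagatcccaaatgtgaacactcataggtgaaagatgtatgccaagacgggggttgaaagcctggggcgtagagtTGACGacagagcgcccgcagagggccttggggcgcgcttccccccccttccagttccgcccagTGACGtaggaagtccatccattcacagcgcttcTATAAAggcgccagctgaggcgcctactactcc
Fosb: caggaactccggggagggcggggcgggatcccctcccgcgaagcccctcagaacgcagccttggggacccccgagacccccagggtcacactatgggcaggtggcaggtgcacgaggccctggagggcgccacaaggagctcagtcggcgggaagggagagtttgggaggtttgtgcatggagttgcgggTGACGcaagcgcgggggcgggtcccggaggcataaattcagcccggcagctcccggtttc
Jun: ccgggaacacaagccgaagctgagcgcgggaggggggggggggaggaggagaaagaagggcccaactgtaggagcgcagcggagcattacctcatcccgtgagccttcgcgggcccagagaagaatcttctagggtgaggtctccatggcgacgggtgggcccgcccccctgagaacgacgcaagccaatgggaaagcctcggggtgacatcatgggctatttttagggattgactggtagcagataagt
Atf3: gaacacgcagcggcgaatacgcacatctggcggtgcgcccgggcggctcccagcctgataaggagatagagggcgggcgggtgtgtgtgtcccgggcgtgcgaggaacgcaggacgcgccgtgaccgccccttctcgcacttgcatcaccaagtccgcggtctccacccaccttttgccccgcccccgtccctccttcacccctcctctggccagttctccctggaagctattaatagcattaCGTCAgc
Dusp1: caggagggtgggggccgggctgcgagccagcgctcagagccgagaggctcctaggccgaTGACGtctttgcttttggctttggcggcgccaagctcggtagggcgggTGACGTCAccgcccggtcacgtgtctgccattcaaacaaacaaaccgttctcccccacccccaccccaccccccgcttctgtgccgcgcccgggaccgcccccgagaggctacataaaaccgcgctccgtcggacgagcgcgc
The short core stood in 6 of 8 windows, against 17.9% of the windows of 27025 genes. Unlike the genes used for the spans, these 27025 were not limited to tested or protein-coding genes. Fos held it 129 to 125 and 66 to 62 bases before the start, and Fosb 60 to 56 bases before it. In Atf3 it ended 3 bases before the start, and in Nr4a1 it occurred 4 times. The full element, which contains the core on both strands, was found in Dusp1 alone, 143 to 136 bases before the start, against 1.62% of all windows. Fos was the only one with TATAAA, 33 to 28 bases before the start, against 8.12% of all windows (this motif was searched on the sense strand, the others on both). Within these 250 bases Zfp36 was the only one with a CArG box, the site of serum response factor, against 1.40% of all windows. Bases farther from the start were not searched, so a site there would not be seen. The AP-1 site, searched as TGAGTCA and TGACTCA, was in 0 of 8 windows and 4.43% of all, and the EGR site GCGTGGGCG in 0 of 8 and 0.54%. The GC box GGGCGG, not marked in capitals, was in 7 of 8 and in 32.9%. These are matches of letters within the window and say nothing of binding in these cells.

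The 3' UTRs were searched for ATTTA, the core of the AU-rich elements through which short-lived transcripts are destroyed. It was found in 9 of 10, all but Ier2, with a median of 3.56 per kilobase of UTR against 1.37 over 18561 genes. The longer form TTATTTATT, the preferred site of the decay factor encoded by Zfp36, was in Fos, Zfp36 and Dusp1, and in 8.16% of the 18561 genes. A stretch of 30 bases with ATTTA in capitals is shown for these 3, at chr12:85477109-85477138 on the plus strand for Fos, and at chr7:28376955-28376984 for Zfp36 and chr17:26506148-26506177 for Dusp1 on the minus strand.
Fos: caATTTATTTAttaagatggattctcagat
Zfp36: ttATTTAtgacgactttATTTAttgtatta
Dusp1: ttATTTATTTAacacccccctcacccccca

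The 10 genes and the lists used below were chosen with earlier results of these data known. Shares over all genes given beside their counts are therefore a description and not a test. The genes tested in the first set include genes at the level of the chemoreceptor genes, far below the 10. Outside the 10, 11276 genes had a mean log2 CPM of 3 or more there. Under a filter of at least 10 CPM in 3 libraries, edgeR called more genes in each direction, from fewer tested. Shares among genes at the level of the 10 were not computed, so these contrasts are not matched for level. In the first set, 5 of the 10 genes fell in Chaf1a cko and 0 rose. These were Egr1, Atf3, Fos, Jun and Fosb. Of all 22965 genes tested, 0.435% fell and 0.740% rose, 1.18% in all, by the quasi-likelihood test of edgeR with p-values adjusted over all of them by Benjamini and Hochberg and a threshold of 0.05. The falls were moderate: Fosb fell by 19.8% and Atf3 fell by 32.7%. The log2 fold change was below 0 for all 10, against 50.9% of all genes, and its median over the 10 was -0.25, against -0.01 over all genes. The 3 Chaf1a cko libraries lay below the 3 Ctrl libraries for 7 of the 10, against 7.85% of all genes, and above them for 0, against 8.33%. The unadjusted p was under 0.05 in that direction for the same 7, against 4.50% of all genes. DESeq2's Wald test called the same 5 of the 10, all lower, against 0.727% of all genes lower and 2.10% in either direction.

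**Figure D1:**
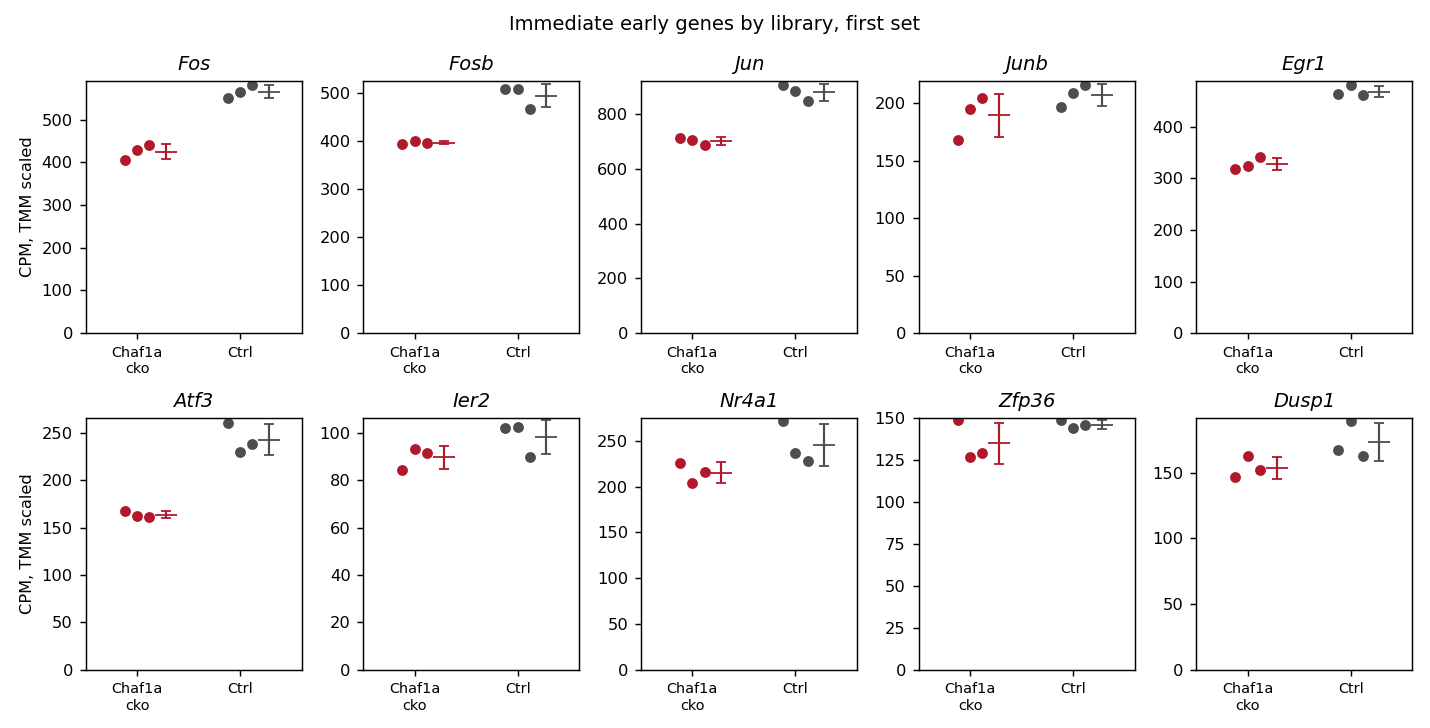
Level of each of the 10 immediate early genes in the first set, in CPM (counts scaled to library size, with TMM) on linear axes that start at 0. Points are libraries, bars the mean ± SD of 3 libraries, with Chaf1a cko left of Ctrl; the points of Fos, Fosb, Jun, Egr1, Atf3, Nr4a1 and Dusp1 do not overlap between the groups.

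Among the AP-1 subunits, Fos, which pairs with JUN proteins to bind DNA, had 406, 428 and 440 CPM in Chaf1a cko and 551, 564 and 582 CPM in Ctrl. The highest Chaf1a cko library thus stayed below the lowest Ctrl library. Its log2 fold change was -0.41 (SE 0.044, 95% interval -0.51 to -0.32, edgeR adjusted p 3.23e-05). Fosb, a close relative of Fos, had 393, 400 and 395 CPM in Chaf1a cko and 507, 508 and 466 CPM in Ctrl. The Chaf1a cko libraries were nearly equal, and the lowest Ctrl library, replicate 3, was still above them. Fosb fell by 0.32 on the log2 scale (SE 0.046, 95% interval -0.42 to -0.22, edgeR adjusted p 0.000721).

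Jun, the main partner of FOS proteins and able to pair with itself, had 713, 708 and 687 CPM in Chaf1a cko and 909, 885 and 849 CPM in Ctrl, again without overlap. Its log2 fold change was -0.33 (SE 0.038, 95% interval -0.41 to -0.25, edgeR adjusted p 7.04e-05). Junb, a weaker activator that can restrain JUN, had 168, 195 and 205 CPM in Chaf1a cko and 197, 209 and 216 CPM in Ctrl. The groups overlapped, Chaf1a cko replicate 1 being the lowest. Junb had a log2 fold change of -0.13 with a 95% interval of -0.28 to 0.02 (edgeR adjusted p 0.564).

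Atf3, a stress-induced ATF that pairs with JUN proteins and represses many targets, had 168, 162 and 161 CPM in Chaf1a cko and 261, 230 and 239 CPM in Ctrl. It had the lowest log2 fold change of the 10, and the groups lay far apart relative to their spread. The value was -0.57 (SE 0.060, 95% interval -0.70 to -0.44, edgeR adjusted p 2.80e-05).

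Egr1, a zinc finger factor induced through serum response factor, had 318, 325 and 341 CPM in Chaf1a cko and 464, 481 and 461 CPM in Ctrl. No library of either group came near the other group. It had the smallest adjusted p of the 10, 4.59e-06 by edgeR, with a log2 fold change of -0.51 (SE 0.046, 95% interval -0.61 to -0.42). Nr4a1, an orphan nuclear receptor, had 226, 204 and 216 CPM in Chaf1a cko and 272, 237 and 228 CPM in Ctrl. The groups did not overlap but nearly met. Its log2 fold change of -0.19 (SE 0.066) had an unadjusted p of 0.0101 and an edgeR adjusted p of 0.270, so it did not pass the test. Ier2, a small nuclear protein of the early response, had 84.1, 93.1 and 91.4 CPM in Chaf1a cko and 102, 102 and 89.7 CPM in Ctrl. The groups overlapped, and the log2 fold change was -0.13 (SE 0.081, edgeR adjusted p 0.658).

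Neither feedback regulator passed the test. Zfp36 encodes tristetraprolin, which binds AU-rich elements and speeds the decay of transcripts, its own among them. It had 149, 127 and 129 CPM in Chaf1a cko and 149, 144 and 146 CPM in Ctrl. Chaf1a cko replicate 1 had the highest Zfp36 level of the 6 libraries, so the groups overlapped, and the log2 fold change was -0.12 (SE 0.070, edgeR adjusted p 0.646). Dusp1, the phosphatase that switches off MAP kinases, had 146, 163 and 152 CPM in Chaf1a cko and 167, 190 and 163 CPM in Ctrl. The highest Chaf1a cko library and the lowest Ctrl library were almost level. Dusp1 had a log2 fold change of -0.17 (SE 0.069, unadjusted p 0.0223, edgeR adjusted p 0.382).

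**Figure D2:**
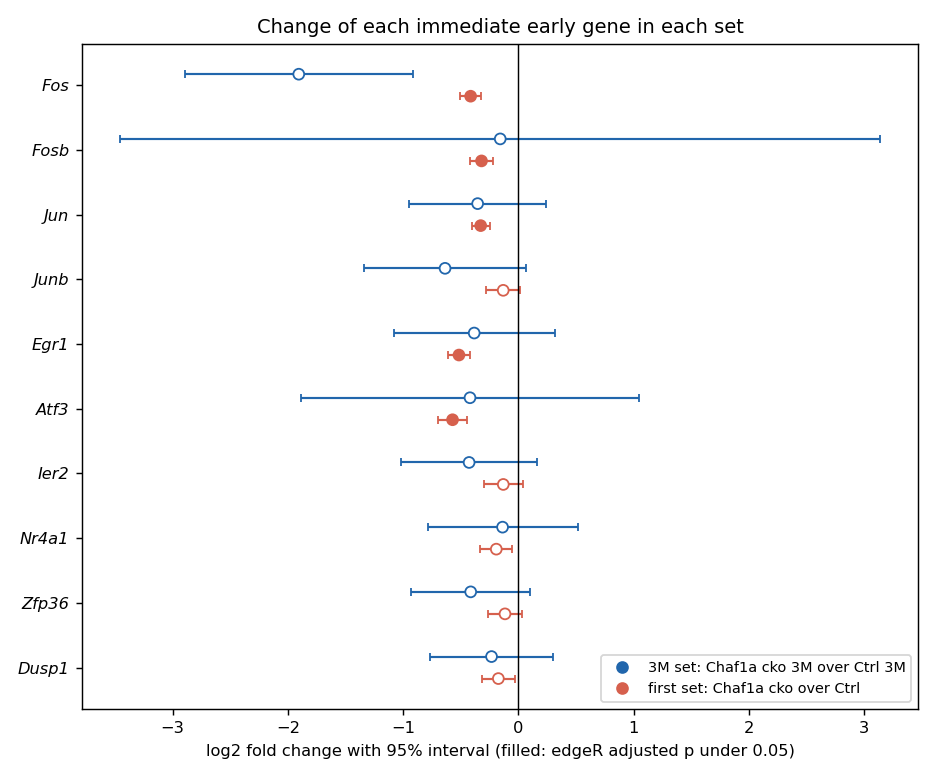
Log2 fold change of each immediate early gene with its 95% interval, Chaf1a cko 3M over Ctrl 3M and Chaf1a cko over Ctrl; filled symbols passed the edgeR test at an adjusted p of 0.05. In the first set the intervals are narrow and 5 filled symbols lie between -0.57 and -0.32, while in the 3M set no symbol is filled and the intervals are wide.

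The 10 genes together held 0.279%, 0.281% and 0.274% of the counts in Chaf1a cko and 0.355%, 0.360% and 0.348% in Ctrl. The calls of the 5 genes held under all 14 alternatives, which included other scalings, other tests and leaving out any 1 library, and all 140 fold changes of the 10 genes under them were below 0. Nr4a1 passed under 1 alternative, the filter of at least 10 CPM in 3 libraries (adjusted p 0.0426). All 10 genes were far above the 95th percentile of the chemoreceptor genes in every library of the first set.

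Marker levels of several cell types differed between the same libraries. Of all genes tested there, 0.435% were lower and 0.740% higher by the edgeR test. The summed level of 8 fibroblast markers was 2952 to 2978 CPM in Chaf1a cko and 3542 to 3650 CPM in Ctrl, with 5 of 8 lower by the test. That of 8 macrophage and myeloid markers was 58.8 to 65.6 CPM in Chaf1a cko and 70.6 to 78.4 CPM in Ctrl, with 0 of 8 called. That of 8 mural and smooth muscle markers was 1480 to 1486 CPM in Chaf1a cko and 1157 to 1233 CPM in Ctrl, with 2 higher and 1 lower. That of 8 erythroid markers was 2300 to 2325 CPM in Chaf1a cko and 1658 to 2236 CPM in Ctrl, with 0 called. Its defining markers went both ways. Hba-a1 averaged 1552 CPM in Chaf1a cko and 1144 CPM in Ctrl, Hba-a2 592 and 389 CPM, and Hbb-bs 23.1 and 227 CPM. The summed level of 8 cardiomyocyte markers was 89552 to 90169 CPM in Chaf1a cko and 94809 to 98071 CPM in Ctrl, with 1 higher and 4 lower. The sums of 8 markers each of endothelium, lymphocytes and epicardium overlapped between the groups. No defining marker of these lists was at 0, but most chemoreceptor genes also had counts in this table. The lymphocyte markers Cd3e, Cd3d and Cd4 averaged 2.48, 1.61 and 2.92 CPM in Chaf1a cko and 1.27, 2.61 and 3.55 CPM in Ctrl. These values lie under the chemoreceptor 95th percentile of 5.31 CPM and are not read as presence of lymphocytes. Summed levels of 4 Y-linked genes were 115 to 133.99 CPM in Chaf1a cko and 50.05 to 61.1 CPM in Ctrl, and all 4 rose. Xist, expressed from the inactive X chromosome of female cells, was 270 to 323 CPM in Chaf1a cko and 291 to 620 CPM in Ctrl, with Ctrl replicate 3 within the range of Chaf1a cko, and did not pass the test. A difference in the share of male cells and the genotype cannot be told apart in the first set. The part of these differences in the immediate early gene result was not tested. In bulk RNA, fewer cells of a type and less RNA per cell cannot be told apart.

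Genes of the same pathway outside the 10 were read from 6 lists of 113 genes in all. Of these, 0 rose and 6 fell in the first set, against 0.740% and 0.435% of all genes. Of 26 other immediate early genes 5 fell and 0 rose. Of the 26 log2 fold changes 22 were below 0, against 50.9% of all genes. Their median was -0.12, against -0.01 over all genes. Ccn1, a matrix protein secreted early after stimulation, had 220, 210 and 235 CPM in Chaf1a cko and 322, 316 and 329 CPM in Ctrl. The groups did not overlap, and the log2 fold change was -0.54 (SE 0.054, edgeR adjusted p 1.62e-05). Klf4, a Krüppel-like zinc finger factor, averaged 198 ± 2.18 CPM in Chaf1a cko and 241 ± 2.34 CPM in Ctrl (SD, n = 3 each; log2 fold change -0.29, edgeR adjusted p 0.00715). Csrnp1, a nuclear factor first found as a gene induced by AXIN1, averaged 87.9 ± 5.91 CPM in Chaf1a cko and 112 ± 1.49 CPM in Ctrl (SD, n = 3 each; log2 fold change -0.35, edgeR adjusted p 0.0236). The other 2 were Myc, the growth-promoting transcription factor (log2 fold change -0.45, edgeR adjusted p 0.0398), and Ccn2, the connective tissue growth factor (-0.26, 0.0403), both named after their values were seen. Only the call of Ccn1 held whichever library was left out. Klf4 missed the threshold without Chaf1a cko replicate 2 (adjusted p 0.0537) and without Chaf1a cko replicate 3 (0.0535), Csrnp1 in 5 of 6 such fits, Myc in 5 of 6 and Ccn2 in all 6.

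The median log2 fold change of 20 feedback inhibitors and mRNA decay factors was 0.04. Of these 20, 1 fell and 0 rose, against 0.435% and 0.740% of all genes. The 1 was Dusp10, a phosphatase of the stress kinases JNK and p38, at 34.7 ± 1.66 CPM in Chaf1a cko and 48.4 ± 3.58 CPM in Ctrl (SD, n = 3 each; log2 fold change -0.48, edgeR adjusted p 0.0436), a call lost in all 6 fits that left out a library. Spred1, an inhibitor of RAS signalling, had 77.1 ± 7.25 CPM in Chaf1a cko and 62.0 ± 4.51 CPM in Ctrl (SD, n = 3 each; edgeR adjusted p 0.170), and Zfp36l1, a relative of Zfp36, had 239 ± 11.9 CPM in Chaf1a cko and 270 ± 18.9 CPM in Ctrl (SD, n = 3 each; edgeR adjusted p 0.239).

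In the other 4 lists 0 genes rose and 0 fell. For 12 further members of the AP-1 and ATF family the median log2 fold change was -0.05. Jund, the JUN protein present without a stimulus, had 191, 220 and 220 CPM in Chaf1a cko and 242, 246 and 252 CPM in Ctrl, without overlap, and an edgeR adjusted p of 0.0966. Fosl1 (adjusted p 0.317) and Maff (0.332) were next. For 26 upstream kinases and factors the median was 0.01. Rps6ka2, a kinase activated by ERK, had a log2 fold change of 0.28 (edgeR adjusted p 0.175), the receptor gene Erbb2 one of -0.28 (0.275) and the receptor gene Egfr one of -0.39 (0.463). For 19 delayed and AP-1 target genes the median was -0.01, with Hbegf, an EGF receptor ligand, at -0.29 (edgeR adjusted p 0.182), the haem-degrading Hmox1 at -0.43 (0.252) and the cyclin gene Ccnd1 at -0.19 (0.582). For 10 heat shock and dissociation stress genes the median was -0.06, with the co-chaperone genes Dnajb1 at -0.25 (edgeR adjusted p 0.275) and Bag3 at -0.13 (0.397), and Hspe1 at 0.19 (0.418). At an unadjusted p under 0.05, 23 of the 113 listed genes were lower, against 4.50% of all genes, and 6 were higher, against 5.63% of all genes. In either direction the share of all genes was 10.1%. Groups did not overlap for 22 of the 113 that were lower, against 7.85% of all genes. They also did not overlap for 7 that were higher, against 8.33% of all genes.

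**Figure D3:**
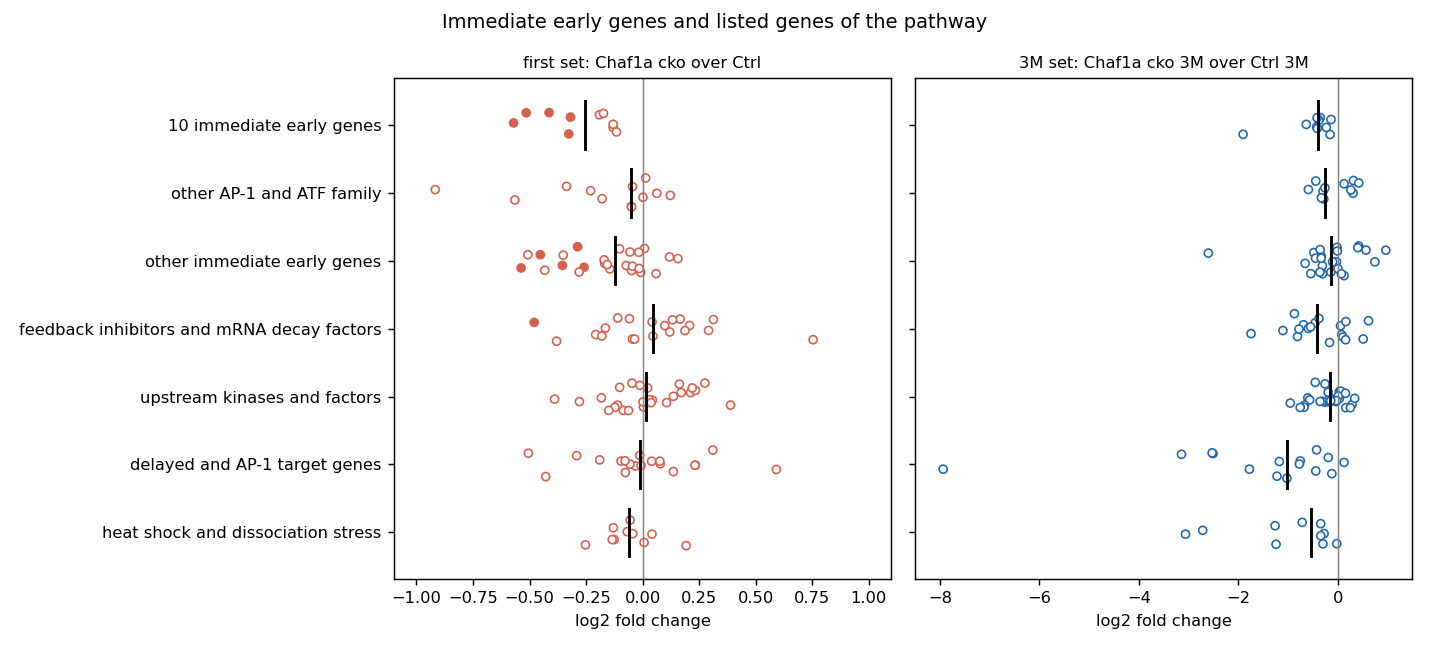
Log2 fold changes of the 10 immediate early genes and of the genes of 6 pathway lists in each set, 1 point per gene, Chaf1a cko over Ctrl and Chaf1a cko 3M over Ctrl 3M. In the first set the 10 genes lie at a median of -0.25 and the lists at medians between -0.12 and 0.04. In the 3M set the heat shock genes lie at a median of -0.53, all below 0, against 52.0% of all genes.

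In the 3M set 0 of the 10 genes passed the edgeR test, as did 0.0144% of 13925 genes tested, 0.00718% in each direction. Fos had 3.94, 3.85 and 7.07 CPM in Chaf1a cko 3M and 28.1, 14.2 and 13.6 CPM in Ctrl 3M, from 42 to 111 counts in Chaf1a cko 3M and 170 to 300 counts in Ctrl 3M. Every Chaf1a cko 3M library was below every Ctrl 3M library, with Ctrl 3M replicate 1 well above the other Ctrl 3M libraries. Fos thus had a log2 fold change of -1.90 (SE 0.44, 95% interval -2.90 to -0.91, unadjusted p 0.0019, edgeR adjusted p 0.554). DESeq2's Wald test, which called 0.517% of genes in either direction and 0.294% as lower, gave the same fold change an adjusted p of 0.0293. Over the alternatives the adjusted p ranged from 0.0293 to 0.976 and the log2 fold change from -2.25 to -1.48, the last without Ctrl 3M replicate 1. Fos was the 1 gene of the 10 with an unadjusted p under 0.05, against 3.73% of all genes in that direction, and the 1 whose groups did not overlap, against 6.89% of all genes in that direction and 7.21% in the other.

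The other AP-1 genes overlapped between the groups. Fosb had 7.50, 11.04 and 0 CPM in Chaf1a cko 3M and 6.57, 3.79 and 10.3 CPM in Ctrl 3M. Chaf1a cko 3M replicate 3 is listed at 0 counts while the other 5 libraries have 64 to 172, and 21 genes of that table show the same pattern of 0 in 1 library and at least 50 counts in the other 5, so the 0 is not read here as absence of the transcript. Fosb had a log2 fold change of -0.16 with an SE of 1.36 (edgeR adjusted p 0.990). Jun had 79.5, 83.7 and 77.8 CPM in Chaf1a cko 3M and 103, 137.25 and 67.1 CPM in Ctrl 3M. Its Chaf1a cko 3M libraries were close together and its Ctrl 3M libraries lay on both sides of them (-0.35, edgeR adjusted p 0.819). Junb had 20.996, 28.6 and 37.8 CPM in Chaf1a cko 3M and 61.4, 33.3 and 41.4 CPM in Ctrl 3M, with overlap (-0.64, edgeR adjusted p 0.731). Atf3 had 6.65, 12.8 and 10.1 CPM in Chaf1a cko 3M and 25.9, 3.85 and 9.99 CPM in Ctrl 3M. Ctrl 3M held both its highest and its lowest library (-0.42, edgeR adjusted p 0.913).

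Egr1 had 53.3, 29.0 and 32.2 CPM in Chaf1a cko 3M and 66.2, 42.8 and 40.3 CPM in Ctrl 3M, where replicate 1 was the highest library of each group (-0.38, edgeR adjusted p 0.834). Nr4a1 had 31.1, 28.2 and 34.1 CPM in Chaf1a cko 3M and 31.0, 23.8 and 48.0 CPM in Ctrl 3M (-0.14, edgeR adjusted p 0.941). Ier2 had 48.8, 62.9 and 81.0 CPM in Chaf1a cko 3M and 63.8, 104 and 91.0 CPM in Ctrl 3M (-0.43, edgeR adjusted p 0.778). All 3 overlapped between the groups. Zfp36 had 49.9, 34.4 and 35.6 CPM in Chaf1a cko 3M and 53.8, 58.6 and 47.2 CPM in Ctrl 3M (-0.41, edgeR adjusted p 0.759). Dusp1 had 184, 141.2 and 133.2 CPM in Chaf1a cko 3M and 138, 225 and 175 CPM in Ctrl 3M (-0.23, edgeR adjusted p 0.867). Both feedback genes overlapped, with Chaf1a cko 3M replicates 1 and 2 above the lowest Ctrl 3M library for Dusp1.

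**Figure D4:**
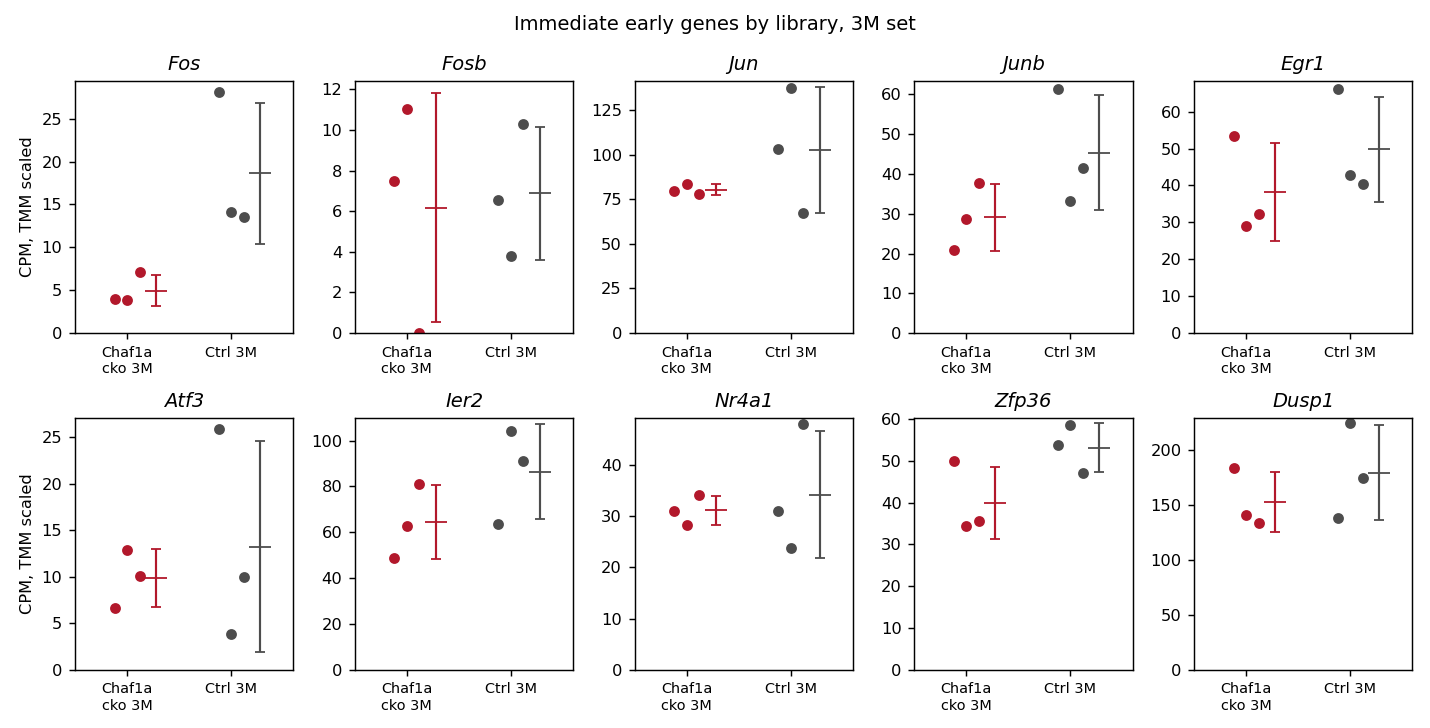
Level of each of the 10 immediate early genes in the 3M set, in CPM (counts scaled to library size, with TMM) on linear axes that start at 0, with points for libraries, bars for the mean ± SD of 3 libraries, and Chaf1a cko 3M left of Ctrl 3M. Only the points of Fos do not overlap between the groups, and Fosb is at 0 in 1 Chaf1a cko 3M library.

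All 10 log2 fold changes of the 3M set were below 0, against 52.0% of all genes, with a median of -0.40 against -0.02, but those of Fosb, Atf3 and Nr4a1 were above 0 when some single libraries were left out, and that of Atf3 also by limma. The 10 genes held 0.0490%, 0.0435% and 0.0457% of counts in Chaf1a cko 3M and 0.0547%, 0.0664% and 0.0541% in Ctrl 3M. Among marker sums, that of macrophage and myeloid markers was 186 to 253 CPM in Chaf1a cko 3M and 304 to 414 CPM in Ctrl 3M. That of epicardial markers was 21.1 to 34.1 CPM in Chaf1a cko 3M and 61.9 to 143 CPM in Ctrl 3M, with the defining markers Upk3b and Msln at 0 in all libraries. That of cardiomyocyte markers was 45871 to 48342 CPM in Chaf1a cko 3M and 30014 to 36071 CPM in Ctrl 3M, and the sums of fibroblast, endothelial, mural, lymphocyte and erythroid markers overlapped. Summed Y-linked genes were 355 to 394 CPM in Chaf1a cko 3M and 393 to 646 CPM in Ctrl 3M, with overlap, and Xist was 0 to 3.98 CPM in Chaf1a cko 3M and 0 to 0.296 CPM in Ctrl 3M. No marker of the macrophage, epicardial and cardiomyocyte lists passed the test, and their part in the immediate early gene values was not tested.

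Of the 105 listed pathway genes that could be tested in the 3M set 0 passed the edgeR test, and 8 had an unadjusted p under 0.05, all of them lower, against 3.73% of all genes lower, 3.20% higher and 6.93% in either direction. Groups did not overlap for 10 of the 105 that were lower, against 6.89% of all genes. They also did not overlap for 2 that were higher, against 7.21% of all genes. Egr3, a relative of Egr1, had 3.56, 2.57 and 2.29 CPM in Chaf1a cko 3M and 35.3, 7.11 and 8.87 CPM in Ctrl 3M. The groups did not overlap and Ctrl 3M replicate 1 stood far above the rest. The log2 fold change was -2.60 (SE 0.65, edgeR adjusted p 0.554, DESeq2 adjusted p 0.0277), and without Ctrl 3M replicate 1 it was -1.51. Among the other 24 tested immediate early genes, Errfi1, an inhibitor of EGF receptors, had the next lowest p (log2 fold change -0.66, edgeR adjusted p 0.712), and the median of the 25 was -0.14. Of the feedback genes, Tnfaip3, an inhibitor of NF-kB signalling, had 7.31, 8.66 and 8.40 CPM in Chaf1a cko 3M and 16.6, 21.1 and 14.7 CPM in Ctrl 3M. These groups did not overlap either (-1.104, SE 0.30, edgeR adjusted p 0.595). The median was -0.42 over 18 feedback genes, -0.16 over 26 upstream genes, with the MAP kinase kinase gene Map2k1 at -0.67 (edgeR adjusted p 0.631), and -0.26 over 11 AP-1 and ATF genes.

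Ctrl 3M replicate 1 also stood apart in the lists of later and stress genes. Of 15 delayed and AP-1 target genes 14 were below 0, against 52.0% of all genes, with a median of -1.02. Plaur, the urokinase receptor, had 7.40, 4.75 and 5.22 CPM in Chaf1a cko 3M and 14.6, 11.9 and 12.7 CPM in Ctrl 3M, without overlap (-1.18, edgeR adjusted p 0.607). Ereg, a further EGF receptor ligand, had 0.844, 0 and 0 CPM in Chaf1a cko 3M and 176, 0 and 0.719 CPM in Ctrl 3M, so its level rested on 1 library. All 10 heat shock genes were below 0, against 52.0% of all genes, with a median of -0.53. The inducible chaperone gene Hspa1b had 6.94, 7.57 and 11.6 CPM in Chaf1a cko 3M and 187, 24.7 and 6.79 CPM in Ctrl 3M. Its Ctrl 3M libraries ran from the lowest to the highest of the 6. The summed heat shock level was 2010, 2806 and 2550 CPM in Chaf1a cko 3M and 5354, 3190 and 2088 CPM in Ctrl 3M, and the part of this difference between Ctrl 3M libraries in the Fos value was not tested.

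**Figure D5:**
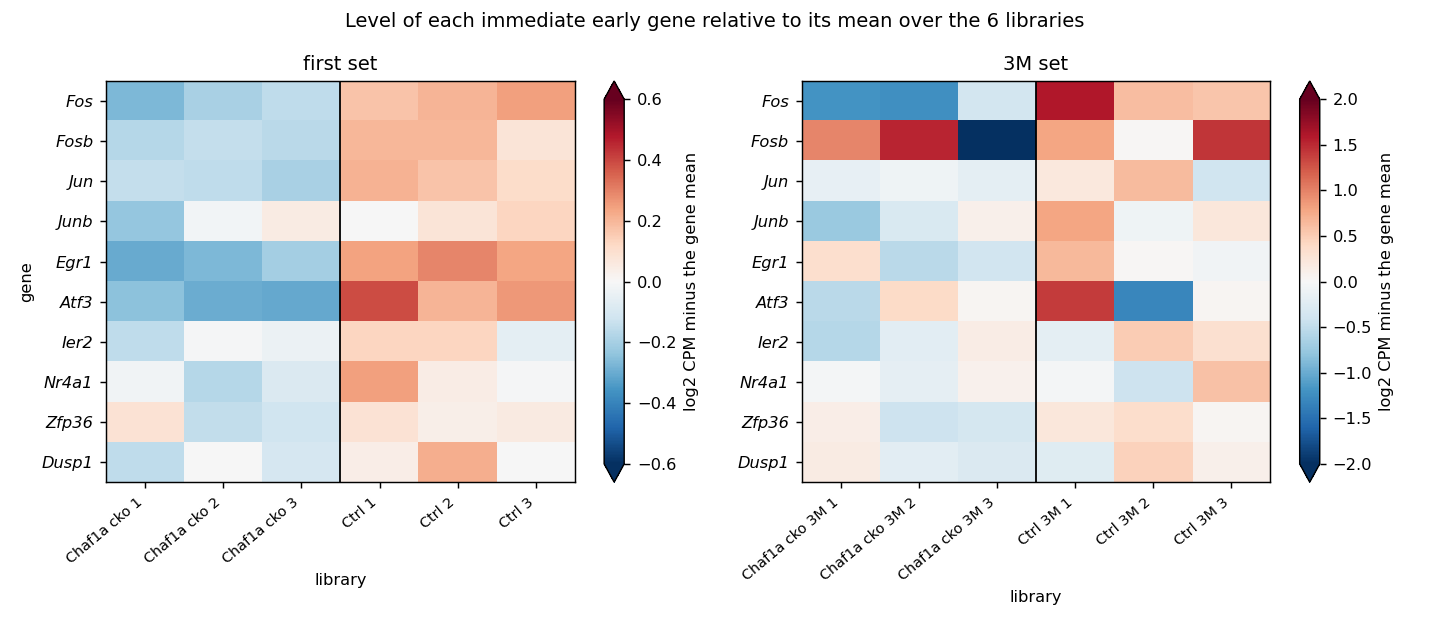
Log2 CPM of each immediate early gene in each library, as the difference from the mean of that gene over the 6 libraries of its set, with Chaf1a cko libraries left of Ctrl libraries. In the first set most genes are below their mean in all Chaf1a cko libraries, while in the 3M set Ctrl 3M replicate 1 is high for Fos, Junb, Egr1 and Atf3 and Fosb is low in 1 Chaf1a cko 3M library.

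Whether the effect differed between the sets was tested as an interaction term with all 12 libraries in 1 model. That model used 1 measure of spread per gene for both sets, although libraries of the 3M set varied more. For Fos its SE, 0.40, was smaller than the SE of 0.44 from the 3M set alone. The errors, intervals and p-values of this paragraph may therefore be too small. It called 0 of the 10 genes and 0.0658% of 22803 genes. At an unadjusted p under 0.05 stood 1 of the 10, Fos, against 9.47% of all genes. For Fos the log2 fold change was -1.90 in the 3M set and -0.41 in the first set, and the fitted difference, 3M minus first, was -1.45 (SE 0.40, 95% interval -2.32 to -0.57, unadjusted p 0.00385, edgeR adjusted p 0.358). DESeq2 gave that difference an adjusted p of 0.0427. For Egr1 the log2 fold change was -0.38 in the 3M set and -0.51 in the first set, with a difference of 0.17 whose 95% interval ran from -0.55 to 0.90. For Jun the interval ran from -0.60 to 0.62, and for Atf3 from -1.30 to 1.71, so differences larger than the first-set effects lie within them. The adjusted p of the 9 genes other than Fos lay between 0.7495 and 1.00.

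The level of the 10 genes relative to each other was read per kilobase of exon (RPKM), within each table. The exon length covered all GENCODE transcripts of a gene and could exceed its RefSeq span. It did so for Junb (2301 against 1840 bases), Egr1 (4484 against 3750), Zfp36 (3470 against 2445) and Dusp1 (3311 against 2882). Shorter lengths would raise the RPKM of these genes, so the order below depends on the lengths used. In the first set the order in Chaf1a cko began with Jun at 220 RPKM, Fos at 181 and Junb at 82.4, and that in Ctrl with Jun at 276, Fos at 240 and Atf3 at 113. The place of Junb in Chaf1a cko was not separate from that of Atf3, since Junb ran from 73.2 to 89.0 RPKM over the Chaf1a cko libraries and Atf3 from 74.7 to 77.9. In Ctrl the order went on with Egr1 at 105, Junb at 90.2, Fosb at 79.1, Nr4a1 at 70.0, Ier2 at 64.4, Dusp1 at 52.3 and Zfp36 at 42.1 RPKM. Among neighbours in that order, the ranges over the Ctrl libraries overlapped for Atf3 and Egr1, for Fosb and Nr4a1, and for Nr4a1 and Ier2. In Ctrl 3M the order began with Ier2 at 56.7, Dusp1 at 54.1 and Jun at 32.2 RPKM and ended with Fos at 7.92, Atf3 at 6.15 and Fosb at 1.103, and among neighbours only Atf3 and Fosb did not overlap.

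No 1 library carried the low values of the first set. Chaf1a cko replicate 1 was the lowest library for 6 of the 10 genes, replicate 2 for 2 and replicate 3 for 2, while the highest was Ctrl replicate 1 for 3 genes, replicate 2 for 4 and replicate 3 for 2. The mean profile of the 10 genes, as log2 CPM around each gene's mean, was -0.16, -0.14 and -0.13 in Chaf1a cko and 0.17, 0.16 and 0.10 in Ctrl. Among 11276 other genes the nearest to this profile over the 6 libraries, by root mean square distance on the log2 scale, was Amotl2 at 0.021, which encodes a cell junction protein that binds YAP. It was followed by Crim1, Adamts4, Klf4 and Atp2a2 (0.034), the last encoding the calcium pump of the sarcoplasmic reticulum. The 10 genes themselves lay between 0.028 (Fosb) and 0.15 (Atf3) from it. In the 3M set the nearest of 10139 genes were Cct8, Slc35g2, Tmem256, Spi1 and Cebpz, at 0.070 to 0.10. The 10 genes lay between 0.27 (Zfp36) and 1.94 (Fosb) from their own mean profile. That profile stood at -0.59 in Chaf1a cko 3M replicate 3, where Fosb, listed at 0 counts, was at -4.73 around its own mean. The neighbours named for the 3M set therefore depend on that 0, which is not read here as absence of the transcript.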

How the data were processed

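The authors deposited 2 tables of unnormalized counts, whole numbers for each gene symbol in 6 libraries. Per the submitters' processing notes, FastQC, Trimmomatic and HISAT2 were used and the genome was mm10. Per the labels' protocols, RNA was extracted with TRIzol and stranded libraries were made after ribosomal RNA depletion. The sources used here do not name the counting program, the gene annotation or the use of strand. Titles gave the groups, 3 libraries each.

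The tables were fitted separately with edgeR 4.0.16 in R 4.3.3: filterByExpr (minimum count 10, minimum total 15), TMM scaling, glmQLFit with robust estimation and a two-sided glmQLFTest, with Benjamini-Hochberg adjustment over all genes tested and a threshold of 0.05. The difference between the sets was the interaction in 1 fit of all 12 libraries. CPM were scaled by TMM, and RPKM used exon lengths of the GENCODE annotation of GRCm38, which also gave exon numbers and UTRs. Gene spans were those of RefSeq GRCm38.p6. Of the gene symbols, 25146 (99.6%) matched RefSeq GRCm38.p6. The fit was tested on simulated counts with known changes, drawn with the spread that edgeR had estimated in each table. Such counts cannot test whether the model suits these libraries, and the shares recovered are not given here. Errors and intervals include both counting noise and variation between libraries. The SE was derived from the test, as the size of the unshrunk log2 fold change divided by the square root of the F statistic. Intervals were centred on the reported log2 fold change, which edgeR shrinks slightly. The alternatives were the Wald test of DESeq2 1.42.0, limma 3.58.1 voom with quality weights, scaling by library size alone or by DESeq2 size factors, no filter, a filter of 10 CPM in 3 libraries, a replicate block, subtraction of the chemoreceptor background per kilobase, and leaving out each library.

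The genes named were the 10, Chaf1a, up to 3 genes of each list with the smallest p, the 5 nearest profiles (mean log2 CPM 3 or more), and the first 3 markers of each cell type; 1 marker list is not reported here. The members and lists were chosen with earlier results of these data known.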

Additional observations from a re-analysis of the deposited data

How the results depend on the processing

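The 5 calls of the first set held under all 14 alternatives, and DESeq2 added no further gene of the 10. Among all genes of the first set, edgeR called 270, DESeq2 483, the background-subtracted fit 170 and the fits without 1 library 128 to 201. Of the 113 listed pathway genes 6 were called, against 10 with DESeq2, 10 with the filter of 10 CPM, 3 with limma voom, 3 with background subtraction and 2 to 3 without 1 library. The median log2 fold change of the 10 genes, -0.25, ran from -0.30 to -0.25 without 1 library, with -0.30 without Ctrl replicate 3. In the 3M set DESeq2 called 1 of the 10 (Fos), 1 listed gene (Egr3) and 72 genes in all, where edgeR called 2 in all, 6 without a filter and 0 to 5 without 1 library. DESeq2 also called 1 of the 10 (Fos) for the difference between the sets. The cause was not tested.

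Signs turned for Atf3 in the 3M set (0.36 with limma voom, -0.86 to 0.51 without 1 library, the last without Ctrl 3M replicate 1), for Fosb (-0.89 to 0.43 without 1 library, 0.43 without Chaf1a cko 3M replicate 3, 0.26 without Ctrl 3M replicate 3) and for Nr4a1 (-0.34 to 0.18 without 1 library, 0.18 without Ctrl 3M replicate 3). Those of Chaf1a turned in the first set without Chaf1a cko replicate 1 (-0.09), Ctrl replicate 1 (-0.02) or Ctrl replicate 3 (-0.13; range up to 0.27), and in the 3M set without Ctrl 3M replicate 1 (-0.16; range up to 0.96). The cause was not tested. Fosb of the 3M set could not be tested under the filter of 10 CPM.

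Same-numbered libraries did not deviate together (correlations -0.05, 0.01 and 0.03 in the first set and 0.07, 0.08 and -0.02 in the 3M set), so the numbers were not taken as pairs. With the replicate block, 5 of the 10 genes, 5 listed genes and 192 genes in all were called in the first set, and 0, 0 and 0 in the 3M set. For 9 of the 10 genes the 95% interval of the 3M set held both 0 and the first-set value, so these were not told apart there.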
